A study of Mus musculus with 50 samples.

Results

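The breakdown of the branched-chain amino acids leucine, isoleucine and valine was followed through 8 genes, namely Bcat1, Bcat2, Bckdha, Bckdhb, Dbt, Bckdk, Ivd and Hibch, in mouse CD8+ T cells taken through the first day of activation. The 8 genes were picked by name from the pathway with earlier results of these data known, and a row was found for each of them among the 21647 Ensembl gene rows of the count table. All 8 were among the 13294 genes left by a filter on low counts, Bcat1 through its later libraries, since it had as little as 1 read in a library at 0h. Because of how they were picked, the tests below describe these genes and are no independent evidence that the pathway stands out.

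Splenic CD8+ T cells were isolated with anti-CD8a beads from 10-week-old mice and sequenced as bulk mRNA at 0h, 2h, 6h, 12h and 24h of culture with plate-coated anti-CD3e and soluble anti-CD28, both at 2 ug/ml. The knockout (KO) group is 5 mice of a knockout line, and the wild-type (WT) group is 5 mice; the strain label of both reads C567BL/6J. Each mouse gave 1 library at each time, which makes 50 libraries. KO and WT cells had the same isolation and the same stimulation, and the 0h cells are labelled naive.

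Branched-chain amino acid breakdown begins with a transaminase that moves the amino group onto α-ketoglutarate; BCAT1 does this in the cytosol and BCAT2 in mitochondria. The resulting keto acids are oxidised by the mitochondrial branched-chain keto acid dehydrogenase complex, which is built from E1α (Bckdha), E1β (Bckdhb), E2 (Dbt) and E3 (Dld) subunits and is switched off when the kinase BCKDK phosphorylates E1α and on when the phosphatase PPM1K removes that phosphate. Downstream, isovaleryl-CoA dehydrogenase (Ivd) acts on the leucine branch and 3-hydroxyisobutyryl-CoA hydrolase (Hibch) on the valine branch. Activated T cells are known to take up leucine through the SLC7A5 and SLC3A2 carrier, and leucine is both a building block of protein and a signal to mTORC1.

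Library totals ran from 9571625 to 31293872 assigned reads with a median of 23548632, and levels are given as CPM, read counts scaled to library size. All 9 CD8 T cell markers were above 0 in every library. Markers of other cells were also read, up to 169 CPM for Cd79b of B cells and 43.7 CPM for Lyz2 of myeloid cells. Maxima of the dendritic cell markers ran from 0.813 CPM for Clec9a to 17.4 CPM for Zbtb46. Those of the NK cell markers ran from 3.33 CPM for Klra8 to 10.3 CPM for Klre1. Summed over 6 genes, B cell markers were at 68.2 to 325 CPM in KO libraries at 0h. They were at 30.4 to 223 CPM in WT mice 2, 3 and 5. WT mouse 1 had 6.63 CPM and WT mouse 4 had 10.8 CPM. WT mice 1 and 4 stood apart from the other mice. At 0h the summed CPM of 8 mitosis genes was 232 to 896 in KO libraries, 5080 in WT mouse 1, 4080 in WT mouse 4 and 75.2 to 154 in the remaining WT mice. For 7 immature thymocyte genes the sum was 39.6 to 116 in KO libraries, 1690 in WT mouse 1, 1270 in WT mouse 4 and 52.2 to 87.8 in the remaining WT mice. For 6 erythroid genes the 0h sum was 146 in WT mouse 1 and 103 in WT mouse 4. KO libraries had 14.4 to 56.2 and the remaining WT mice 2.49 to 77.7. For 4 CD4 T cell genes the sum at 6h was 138 in WT mouse 1 and 109 in WT mouse 4. KO libraries had 23.6 to 43.4 there and the remaining WT mice 30.7 to 40.9. For 7 activation genes at 6h the sum was 6370 to 8160 in KO libraries, 985 in WT mouse 1, 2500 in WT mouse 4 and 6310 to 6750 in the remaining WT mice. The 0h library of WT mouse 3 also stood apart, with 23.8% of its counts in its top 50 genes and CD8 T cell markers that summed to 19300 CPM, where KO libraries had 6710 to 9190 CPM. The median log2 difference of all genes between KO and WT cells at 0h was -0.15 with the scaling used here (TMM) and -0.01 with library totals, so small differences at 0h are to be read against it. Several member results whose call or size turned on these libraries are therefore given with and without them. The fits leave out either WT mice 1 and 4 or the 0h library of WT mouse 3 as well. WT sizes given for all mice alone may also move with these libraries. The part of cell makeup in these results was not tested. In bulk samples, fewer cells of a type and less RNA per cell cannot be told apart.

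In the GRCm38 annotation Bcat1 lies at chr6:144993835-145076184 on the minus strand and Bcat2 at chr7:45570153-45589711 on the plus strand. Of the dehydrogenase subunits, Bckdha lies at chr7:25629946-25658981 on the minus strand, Bckdhb at chr9:83925145-84124240 on the plus strand and Dbt at chr3:116513070-116549981 on the plus strand. Bckdk lies at chr7:127904082-127910221, Ivd at chr2:118861954-118882909 and Hibch at chr1:52844929-52920986, all 3 on the plus strand. Exons of Bckdha overlap the opposite-strand gene B3gnt8 over 1171 bases, those of Bcat2 overlap 0610005C13Rik over 1091 bases, those of Bcat1 overlap Gm26666 over 545 bases and those of Bckdhb overlap Gm46124 over 209 bases. The strand setting of the counting is not given in the sources used here, so the values of these 4 genes, Bckdha most of all, carry that uncertainty.

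RefSeq start sites on GRCm38.p6 were matched for 7 members, which have 10 windows of 250 bases upstream of a start. The windows below are those of Bcat1, the member whose level ranged most widely, from both of its start sites, and of Bckdhb and Ivd, the members that were lower than 0h at every later time in both genotypes. Capitals mark CCAAT or its reverse complement ATTGG, a word searched after the sequences had been seen.
Bcat1 start 1, minus strand, chr6:145076158-145076407: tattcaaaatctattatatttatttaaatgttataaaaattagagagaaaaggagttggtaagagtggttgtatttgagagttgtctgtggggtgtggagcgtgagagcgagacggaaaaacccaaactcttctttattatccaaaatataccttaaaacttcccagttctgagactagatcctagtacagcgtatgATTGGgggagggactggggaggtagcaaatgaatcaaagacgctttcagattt
Bcat1 start 2, minus strand, chr6:145048813-145049062: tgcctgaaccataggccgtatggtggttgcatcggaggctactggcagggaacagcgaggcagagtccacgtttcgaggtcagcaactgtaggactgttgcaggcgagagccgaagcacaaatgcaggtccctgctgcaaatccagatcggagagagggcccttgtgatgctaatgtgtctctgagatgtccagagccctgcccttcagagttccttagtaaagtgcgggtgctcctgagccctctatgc
Bckdhb start 1, plus strand, chr9:83924887-83925136: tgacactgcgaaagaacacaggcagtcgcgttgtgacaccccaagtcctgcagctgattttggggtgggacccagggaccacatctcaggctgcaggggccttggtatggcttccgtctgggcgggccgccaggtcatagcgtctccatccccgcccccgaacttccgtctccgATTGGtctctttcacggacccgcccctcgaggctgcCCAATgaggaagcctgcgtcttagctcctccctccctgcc
Bckdhb start 2, plus strand, chr9:83948531-83948780: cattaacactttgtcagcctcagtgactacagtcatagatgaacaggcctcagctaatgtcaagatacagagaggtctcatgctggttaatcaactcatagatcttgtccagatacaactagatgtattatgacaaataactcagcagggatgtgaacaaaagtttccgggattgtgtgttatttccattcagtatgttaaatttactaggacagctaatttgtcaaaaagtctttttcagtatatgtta
Ivd start 1, plus strand, chr2:118861744-118861993: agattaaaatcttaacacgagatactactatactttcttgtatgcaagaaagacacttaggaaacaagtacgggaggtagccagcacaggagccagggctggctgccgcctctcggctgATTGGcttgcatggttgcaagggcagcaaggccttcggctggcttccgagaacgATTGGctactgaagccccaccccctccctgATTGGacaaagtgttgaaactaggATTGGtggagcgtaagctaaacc
The word occurs on either strand in 4 of the 10 member windows, against 33.8% of all 32851 windows of the same length. The Ivd window holds it 4 times, and 0.84% of all windows hold it as often or more. The E-box word CACGTG, the same on both strands, occurs in 0 of the 10, against 6.02% of all windows. Base composition differs between the starts shown, with 37.6% G and C at start 1 of Bcat1, 56.4% at its start 2, 63.2% at start 1 of Bckdhb, 36.4% at its start 2 and 51.2% at the start of Ivd. A match is a string of letters and is not evidence of binding.

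Bcat1, the cytosolic transaminase, was barely detected at 0h and 2h in 8 of the 10 mice and reached 50 CPM or more in every library from 6h. At 0h its level was 0.752, 0.374, 0.0723, 4.56 and 1.38 CPM in KO mice 1 to 5 and 86.5, 0.323, 2.89, 71.4 and 0.233 CPM in WT mice 1 to 5. The 2h level was 4.28, 4.72, 4.11, 4.3 and 4.49 CPM in KO mice and 76.1, 2.2, 4.16, 64 and 2.22 CPM in WT mice. WT mice 1 and 4 thus held it high before and shortly after stimulation, while the other 8 mice had under 5 CPM. At 6h the level was 169, 185, 222, 195 and 197 CPM in KO mice and 50, 151, 190, 82.9 and 174 CPM in WT mice. The 12h level was 286, 216, 241, 248 and 280 CPM in KO mice and 69.5, 203, 214, 124 and 205 CPM in WT mice. The 24h level was 264, 227, 250, 247 and 239 CPM in KO mice and 103, 207, 223, 195 and 219 CPM in WT mice, so that the lowest value at 12h and at 24h was that of WT mouse 1.

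The change of Bcat1 from 0h in KO cells was 7.03 at 6h, 7.43 at 12h and 7.38 at 24h on the log2 scale (SE 1.09, 1.11 and 1.11), with edgeR adjusted p of 1.22e-06, 5.96e-07 and 5.55e-07. These fitted changes start from counts of 1 to 113 reads per KO library at 0h, so their size rests on few reads. In WT cells the change over all 5 mice was 2 at 6h (SE 0.856, edgeR adjusted p = 0.0586), 2.33 at 12h (adjusted p = 0.0289) and 2.55 at 24h (adjusted p = 0.0161). The 12h call was lost when WT mouse 2, 3 or 5 was left out, and the 24h call when WT mouse 3 was. With mouse as a block the WT change at 6h was 3.37 (edgeR adjusted p = 0.0103, in a fit that called 23.9% of genes higher). Leaving out WT mice 1 and 4 gave 7.72 at 6h, 7.95 at 12h and 8.06 at 24h, with edgeR adjusted p of 7.81e-13, 4.56e-13 and 3.36e-13. At 2h the change of 1.57 in KO cells missed the threshold with all mice (adjusted p = 0.176). Leaving out WT mice 1 and 4, it passed, at 1.51 in KO cells (adjusted p = 0.00198) and at 1.73 in WT cells (adjusted p = 0.0245). With the 0h library of WT mouse 3 out too, the WT change at 2h was 3.18 (adjusted p = 0.00035), from the few reads of WT mice 2 and 5 at 0h.

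**Figure D1:**
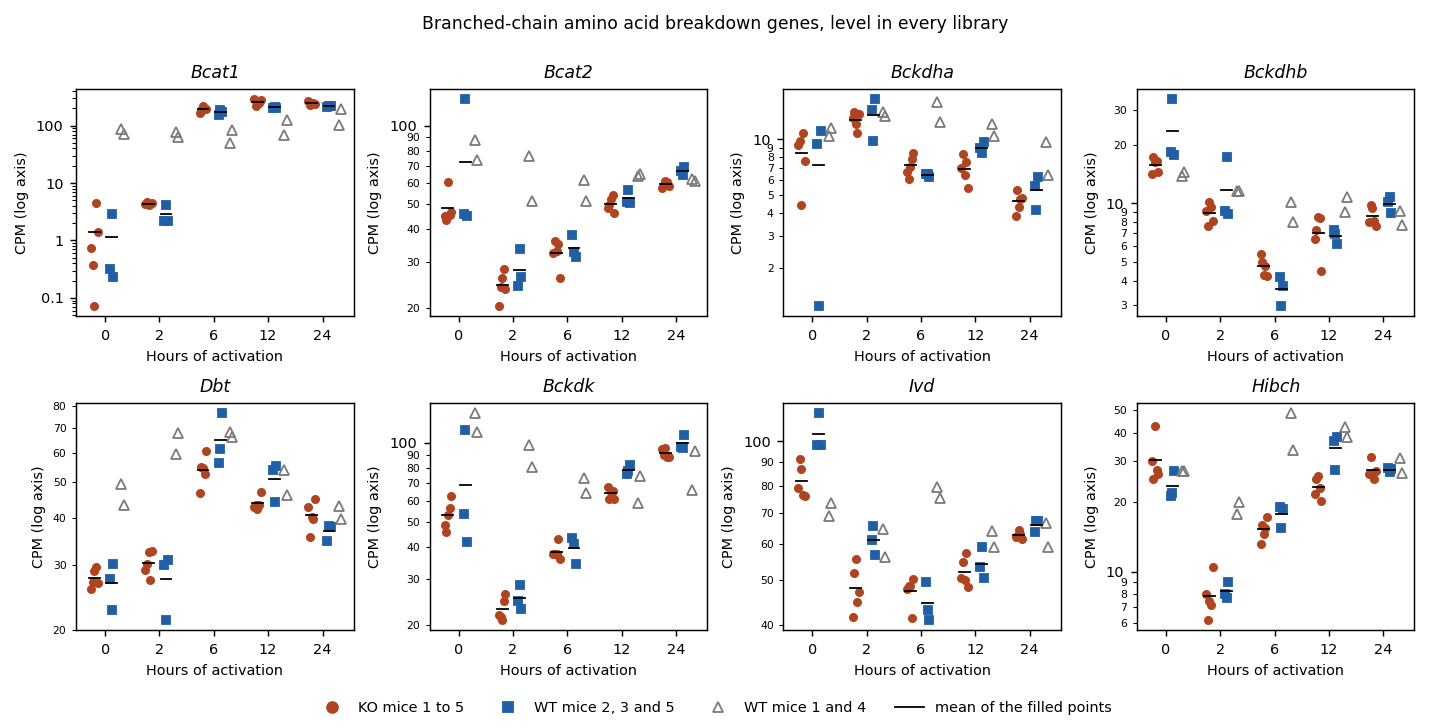
CPM of each member (log axis) against hours of activation, 1 point per library, with KO mice as circles, WT mice 2, 3 and 5 as squares and WT mice 1 and 4 as open triangles; short lines are means of the filled points. Bcat1 lies below 5 CPM at 0h and 2h in the filled points and at 151 CPM or above from 6h, while the triangles of Bcat1 lie at 50 to 195 CPM at all times.

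Bcat2, the mitochondrial transaminase, dipped at 2h and 6h and came back. At 0h its level was 44.8, 43.5, 60.8, 45.5 and 46.5 CPM in KO mice and 87.8, 45.7, 126, 73.9 and 45 CPM in WT mice. The 2h level was 20.3, 24.1, 26, 28.1 and 23.5 CPM in KO mice and 76.6, 24.2, 33.6, 51.3 and 26.2 CPM in WT mice. It fell at 2h by 0.98 in KO cells (log2, SE 0.224, edgeR adjusted p = 0.000477) and by 0.83 in WT cells (SE 0.223, edgeR adjusted p = 0.00367). At 6h it was still lower, by -0.57 in KO cells (edgeR adjusted p = 0.0318) and by -0.82 in WT cells (adjusted p = 0.00314). The KO call at 6h was lost when KO mouse 1, 3, 4 or 5 was left out, and the WT calls at 2h and 6h when WT mouse 3 was. By 24h it was 57.5 to 61.4 CPM in KO mice and 61.4 to 69.1 CPM in WT mice, and neither change from 0h passed the test with all mice or without WT mice 1 and 4. The WT values moved with the 0h library of WT mouse 3, which was at 126 CPM. Without it and WT mice 1 and 4, the WT change was -0.73 at 2h (edgeR adjusted p = 2.89e-05) and -0.46 at 6h (adjusted p = 0.00318), where it was -1.38 and -1.09 with that library in. At 12h the WT change was -0.50 with it (adjusted p = 0.0495) and 0.18 without it (adjusted p = 0.264). At 24h that fit called Bcat2 higher than at 0h in both genotypes, by 0.31 in KO cells (edgeR adjusted p = 0.00346) and by 0.53 in WT cells (adjusted p = 0.000855).

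The ratio of the transaminases turned over within 6 hours when both were scaled to exon length. In CPM per kb, Bcat1 over Bcat2 was 0.000497 to 0.0419 in the KO libraries at 0h and 0.00217 to 0.00961 in WT mice 2, 3 and 5. At 6h it was 2.14 to 3.16 in KO libraries and 1.67 to 2.43 in WT mice 2, 3 and 5, and at 24h it was 1.61 to 1.92 in KO libraries and 1.3 to 1.45 in those WT mice. In WT mice 1 and 4 it was 0.412 and 0.404 at 0h, 0.339 and 0.678 at 6h, and 0.692 and 1.33 at 24h.

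**Figure D2:**
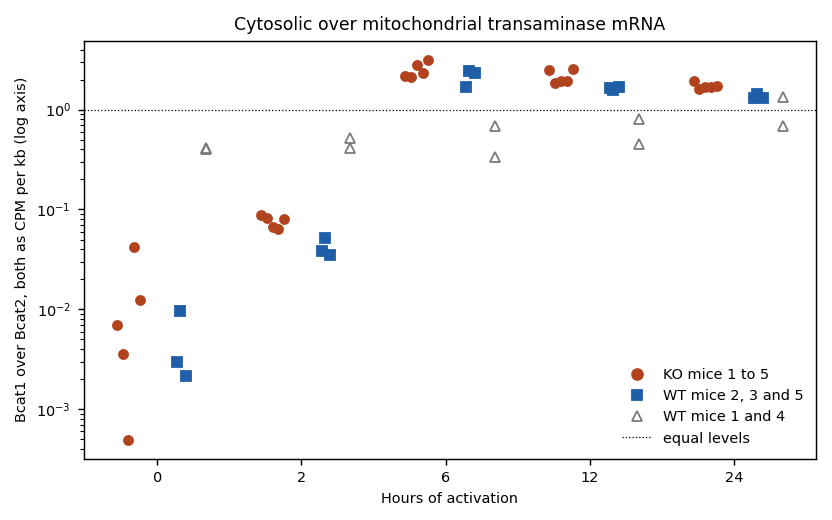
Ratio of Bcat1 to Bcat2, both in CPM per kb of exon (log axis), for each library against hours of activation, with the dotted line at equal levels. KO libraries and those of WT mice 2, 3 and 5 lie below 0.1 at 0h and 2h and above 1 from 6h, and WT mice 1 and 4 lie between 0.339 and 1.33 throughout.

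The 3 dehydrogenase subunits among the members did not move together. Bckdhb, which encodes E1β, fell at every later time, Dbt, which encodes the E2 core, rose at 6h and 12h, and Bckdha, which encodes E1α, was lower at 24h in KO cells, and in WT cells once WT mice 1 and 4 and the 0h library of WT mouse 3 were left out.

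Bckdhb was at 14.2, 17.3, 16.2, 16.5 and 14.4 CPM in KO mice and 13.8, 18.3, 34.1, 14.5 and 17.7 CPM in WT mice at 0h. At 6h it was at 5.48, 5.01, 4.26, 4.78 and 4.25 CPM in KO mice and 10.1, 4.19, 2.97, 7.98 and 3.77 CPM in WT mice. Within each genotype no 6h library reached any 0h library. The share of all genes that separate between times in this way was not counted, here or for the members below. Bckdhb fell by 1.72 in KO cells (log2, SE 0.251, edgeR adjusted p = 3.98e-07) and by 1.76 in WT cells (SE 0.251, adjusted p = 4.73e-07), and by 2.69 in WT cells without WT mice 1 and 4 (SE 0.245, adjusted p = 1.62e-11). The size of that last fall rests in part on the 0h library of WT mouse 3, at 34.1 CPM. WT mice 2 and 5 were at 18.3 and 17.7 CPM at 0h. At 24h Bckdhb was still lower than at 0h, by -0.87 in KO cells (edgeR adjusted p = 0.00263) and -1.07 in WT cells (adjusted p = 0.00052). At 2h the fall was -0.82 in KO cells (edgeR adjusted p = 0.00675) and -0.76 in WT cells (adjusted p = 0.0163), calls that were lost without KO mouse 2 and without WT mouse 2.

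Dbt was at 25.8, 27, 28.8, 29.6 and 26.7 CPM in KO mice and 49.6, 27.4, 22.7, 43.4 and 30.2 CPM in WT mice at 0h. At 6h it was at 46.7, 55, 54.5, 52.6 and 60.7 CPM in KO mice and 68.1, 56.3, 61.5, 66.3 and 76.7 CPM in WT mice, again with no overlap between the times within a genotype. Dbt rose by 0.97 in KO cells (log2, SE 0.187, edgeR adjusted p = 3.95e-05) and by 0.92 in WT cells (SE 0.187, adjusted p = 0.000113). At 12h the rise was 0.67 in KO cells (edgeR adjusted p = 0.00251) and 0.55 in WT cells (adjusted p = 0.0168), the WT call being lost without WT mouse 2 or 5. Without WT mice 1 and 4 the WT rise was 1.26 at 6h and 0.88 at 12h, beside 0.94 and 0.66 in KO cells. At 24h Dbt was 0.56 above 0h in KO cells (edgeR adjusted p = 0.00888). The WT change at 24h was 0.16 with all mice (adjusted p = 0.509) and 0.46 without WT mice 1 and 4 (adjusted p = 0.00254), and WT mice 1 and 4 had the highest Dbt levels of all mice at 0h and at 2h.

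Bckdha was at 4.41 to 10.8 CPM in KO mice and 1.25 to 11.5 CPM in WT mice at 0h. The 2h range was 10.8 to 14.1 CPM in KO mice and 9.82 to 16.4 CPM in WT mice. The changes of 0.60 and 0.63 missed the threshold in the fit without a block (edgeR adjusted p = 0.112 in KO and 0.114 in WT). With mouse as a block they were 0.63 in KO cells (edgeR adjusted p = 0.0382) and 0.74 in WT cells (adjusted p = 0.0213), where 23.8% and 16.9% of genes were called higher. Among WT mice 2, 3 and 5 the change was 0.87 (edgeR adjusted p = 0.036), and this call rests on the 0h library of WT mouse 3, at 1.25 CPM: leaving that library out gave 0.40 (adjusted p = 0.191). For KO cells the 2h change in that fit was 0.60 (adjusted p = 0.00244). At 24h Bckdha was at 3.82, 5.29, 4.28, 4.77 and 4.83 CPM in KO mice and 9.62, 5.58, 4.11, 6.39 and 6.24 CPM in WT mice. It was lower than at 0h in KO cells, by -0.86 (SE 0.307, edgeR adjusted p = 0.015), a call lost when KO mouse 1, 2 or 4 was left out. In WT cells the change was -0.46 with all mice (adjusted p = 0.226) and -0.47 without WT mice 1 and 4 (adjusted p = 0.234). Leaving out the 0h library of WT mouse 3 as well, it was -0.97 in WT cells (edgeR adjusted p = 0.000667) beside -0.87 in KO cells (adjusted p = 3.31e-05), and at 6h it was -0.72 in WT cells (adjusted p = 0.0102).

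Bckdk, the kinase that holds the complex inactive, fell by more than any other member but Hibch at 2h in KO cells and was above its starting level at 24h in those cells. It was at 48.3, 45.4, 53.1, 56.4 and 62.7 CPM in KO mice and 130, 53.4, 112, 110 and 41.6 CPM in WT mice at 0h. At 2h it was at 21.9, 21.6, 21, 24.7 and 26.3 CPM in KO mice and 97.9, 24.7, 28.5, 80.7 and 23.2 CPM in WT mice. Its change was -1.20 in KO cells (log2, SE 0.274, edgeR adjusted p = 0.000477) and -0.81 in WT cells (SE 0.272, adjusted p = 0.0205), the WT call being lost without WT mouse 3. Among WT mice 2, 3 and 5 the fall was -1.45 (SE 0.191, edgeR adjusted p = 1.22e-07), and without the 0h library of WT mouse 3, at 112 CPM, it was -0.93 (SE 0.121, adjusted p = 8.2e-08). At 6h it was lower by -0.80 in WT cells (edgeR adjusted p = 0.0158), also lost without WT mouse 3, or by -0.31 without that library and WT mice 1 and 4 (adjusted p = 0.0265), and in KO cells it was at -0.47 (adjusted p = 0.145), or -0.50 without WT mice 1 and 4 (adjusted p = 0.00287).

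At 24h Bckdk was at 94.7, 89.6, 95.8, 88.1 and 88.2 CPM in KO mice and 66.3, 96.3, 95.4, 93.2 and 107 CPM in WT mice. Every KO library at 24h was above every KO library at 0h, and the rise was 0.78 (log2, SE 0.272, edgeR adjusted p = 0.0131). In WT cells the change was 0.04 with all mice (adjusted p = 0.93) and 0.53 without WT mice 1 and 4 (adjusted p = 0.0123). When only the libraries compared were fitted, without those mice, it was 0.38 (SE 0.412, edgeR adjusted p = 0.488). In the fit of all times without WT mice 1 and 4 and the 0h library of WT mouse 3, it was 1.04 (SE 0.123, edgeR adjusted p = 4.2e-09). That value rests on 2 WT libraries at 0h. That fit also called Bckdk higher at 12h, by 0.25 in KO cells (edgeR adjusted p = 0.00747) and by 0.68 in WT cells (adjusted p = 8.81e-06), calls that neither all mice nor the fit without WT mice 1 and 4 gave. Ppm1k, the opposing phosphatase, was lower at 24h than at 0h in KO cells by -1.48 (SE 0.229, edgeR adjusted p = 8.57e-07) and in WT cells by -0.98 (SE 0.226, adjusted p = 0.000525). Ppm1k was at 11.6 to 14.8 CPM in KO mice and 12.3 to 21.6 CPM in WT mice at 24h, against 32.3 to 43.1 CPM in KO mice and 19 to 41.9 CPM in WT mice at 0h.

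Ivd, the leucine-branch dehydrogenase, was at 79, 91.5, 86.9, 76.3 and 76.2 CPM in KO mice and 69, 98, 115, 73.5 and 98.2 CPM in WT mice at 0h. At 2h it was at 41.6, 51.8, 55.5, 44.8 and 47.1 CPM in KO mice and 64.6, 61.2, 65.6, 56 and 56.7 CPM in WT mice. No library at 2h reached a 0h library of its own genotype. It was lower than at 0h at all 4 later times in both genotypes, by -0.77, -0.79, -0.65 and -0.39 in KO cells and by -0.58, -0.65, -0.67 and -0.49 in WT cells at 2h, 6h, 12h and 24h. The largest edgeR adjusted p among these 8 tests was 0.011, for KO cells at 24h, where the call was lost without KO mouse 2. Without WT mice 1 and 4 the WT changes were -0.77, -1.23, -0.98 and -0.65 in the same order of times. The KO changes in that fit were -0.8, -0.82, -0.66 and -0.38. WT mice 1 and 4 were at 79.6 and 75.3 CPM at 6h, not below their 0h levels of 69 and 73.5 CPM. When only the libraries compared were fitted, Ivd stayed called in KO cells at all 4 later times. In WT cells that fit called it at no time, with edgeR adjusted p of 0.168, 0.131, 0.0512 and 0.059 in the same order of times. Without WT mice 1 and 4, that fit left it uncalled in WT cells at 2h alone (edgeR adjusted p = 0.0588).

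Hibch, the valine-branch hydrolase, had the deepest dip at 2h. At 0h it was at 30.1, 25.2, 42.7, 27.5 and 26.6 CPM in KO mice and 27.3, 21.3, 21.8, 27.3 and 27.4 CPM in WT mice. At 2h it was at 8, 6.19, 7.46, 7.17 and 10.5 CPM in KO mice and 17.8, 8.02, 7.69, 20 and 9.03 CPM in WT mice. Every 2h library lay below every 0h library of either genotype. It fell by 1.95 in KO cells (log2, SE 0.235, edgeR adjusted p = 9.77e-09) and by 0.996 in WT cells (SE 0.229, adjusted p = 0.000817), or by 1.52 in WT cells without WT mice 1 and 4 (SE 0.176, adjusted p = 9.75e-09).

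After that dip Hibch came back toward its 0h level in KO cells. In WT cells it went above that level, with 27.6 to 42.3 CPM at 12h against 21.3 to 27.4 CPM at 0h. At 24h Hibch differed from 0h past the threshold in neither genotype. At 6h it was at 13.2, 16, 14.6, 15.4 and 17.2 CPM in KO mice and 48.5, 19.1, 15.5, 33.6 and 18.7 CPM in WT mice. At 12h it was at 21.7, 25.1, 26, 23 and 20.2 CPM in KO mice and 42.3, 36.9, 27.6, 38.2 and 38.2 CPM in WT mice, with no overlap. At 24h it was at 26.5, 31.5, 26.6, 25.2 and 27.3 CPM in KO mice and 30.9, 28.1, 27.1, 26.8 and 27.7 CPM in WT mice, which overlap again. Relative to 0h, Hibch at 12h was at -0.39 in KO cells (edgeR adjusted p = 0.146) and at 0.55 in WT cells (adjusted p = 0.0495), a call lost in 9 of the 10 fits that each leave out 1 mouse. Leaving out WT mice 1 and 4, the KO value at 12h was -0.40 (edgeR adjusted p = 0.00743) and the WT values were -0.41 at 6h (adjusted p = 0.0358) and 0.49 at 12h (adjusted p = 0.0119), where the WT value at 6h with all mice was 0.12 (adjusted p = 0.734).

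**Figure D3:**
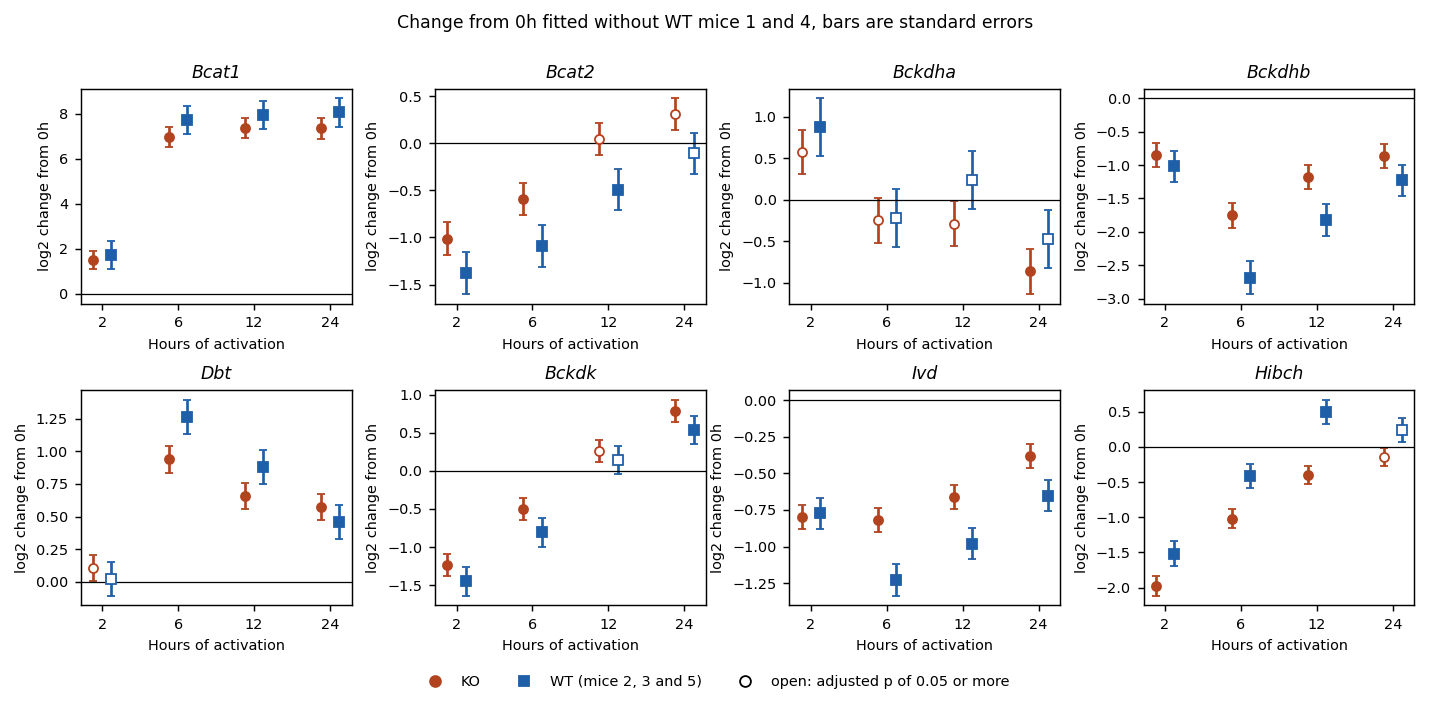
Change from 0h (log2) of each member at 2h, 6h, 12h and 24h, fitted without WT mice 1 and 4, with KO as circles, WT as squares, bars for 1 standard error and open symbols where the adjusted p is 0.05 or more. WT changes share the 0h library of WT mouse 3. Bckdhb and Ivd lie below 0 at every time in both genotypes, Dbt lies above 0 from 6h, and Hibch at 12h is at -0.40 in KO and 0.49 in WT.

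Counted over the 8 members, KO cells had 0 higher and 5 lower than 0h at 2h, against 20.3% and 19.6% of all genes tested, and 2 higher and 4 lower at 6h, against 26.8% and 22.4%. They had 2 higher and 2 lower at 12h, against 27.8% and 25%, and 3 higher and 3 lower at 24h, against 30.7% and 28%. In WT cells 0 were higher and 5 lower at 2h, against 14% and 16.2% of all genes, and 1 higher and 4 lower at 6h, against 20.2% and 19.7%. At 12h 3 were higher and 2 lower in WT cells, against 19.3% and 20.2%, and at 24h 1 was higher and 2 lower, against 19.9% and 24.2%. The members lower at 2h were the same 5 in KO and WT cells, namely Bcat2, Bckdhb, Bckdk, Ivd and Hibch. When only the libraries compared were fitted, KO cells kept all 5 at 2h, where 29.3% of genes were called lower. WT cells kept none of them (edgeR adjusted p of 0.144 to 0.428), where 0.762% of genes were called lower. Without WT mice 1 and 4 that kind of fit kept Hibch alone in WT cells (edgeR adjusted p = 0.0165, 5.28% of genes lower). In the fit of all libraries but those of WT mice 1 and 4, WT mice 2, 3 and 5 had 2 higher and 5 lower at 2h, against 21.9% and 27.7%. At 6h they had 2 higher and 5 lower, against 28.6% and 31.2%. The same fit gave 3 higher and 3 lower at 12h, against 28% and 32.2%, and 3 higher and 2 lower at 24h, against 32.5% and 32%. With the 0h library of WT mouse 3 out too, WT cells had 1 higher and 5 lower at 2h, against 22.4% and 24.6% of all genes, and 2 higher and 6 lower at 6h, against 29.6% and 30.8%. They had 4 higher and 2 lower at 12h, against 30.8% and 31.8%, and 4 higher and 3 lower at 24h, against 34.6% and 32.2%. In KO cells, that fit gave 2 higher and 5 lower at 2h, against 29.9% and 33.6% of all genes. At 6h it gave 2 and 5, against 34.8% and 36%. At 12h it gave 3 and 3, against 35.6% and 37.3%, and at 24h 4 and 3, against 39% and 37.2%. For KO cells the fit without WT mice 1 and 4 gave 1 higher and 5 lower at 2h, against 26.2% and 31.4%, and 2 higher and 5 lower at 6h, against 31.7% and 33%. It gave 2 higher and 3 lower at 12h, against 32.7% and 34.4%, and 3 higher and 3 lower at 24h, against 36.7% and 34.5%. In KO cells the counts at 12h and 24h are close to the shares over all genes. Over the 32 tests in KO cells 7 calls were higher and 14 lower, and with library totals as the scaling 4 were higher and 14 lower. The median log2 change of the 8 members at 2h was -0.79 in KO cells and -0.67 in WT cells, beside -0.08 and -0.08 over all genes tested.

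Scaled to exon length, the order of the members changed over the day. In KO cells at 0h Ivd led with 14.9 ± 1.25 CPM per kb (SD, n = 5), followed by Bckdk with 14.4 ± 1.84 and Bcat2 with 12.4 ± 1.83, whose ranges overlap. Bckdhb had 8.71 ± 0.759 and Dbt 8.24 ± 0.468 CPM per kb, again overlapping, then came Hibch with 5.02 ± 1.17 and Bckdha with 4.4 ± 1.31, and Bcat1 was last with 0.153 ± 0.195. At 24h Bcat1 led with 26.3 ± 1.45 CPM per kb, next to Bckdk with 24.7 ± 1.01, and these ranges overlap. Bcat2 with 15.2 ± 0.414 stood clear of Dbt with 12.2 ± 1.08, which overlapped Ivd with 11.4 ± 0.181. Bckdhb with 4.77 ± 0.53 overlapped Hibch with 4.53 ± 0.398, and Bckdha was last with 2.42 ± 0.296. WT mice 2, 3 and 5 had the same order of means at 0h, with Ivd at 18.8 ± 1.77 and Bcat1 at 0.123 ± 0.162 CPM per kb (SD, n = 3). Part of that order rests on the 0h library of WT mouse 3. Bckdha had 4.97 and 5.81 CPM per kb in WT mice 2 and 5 and 0.66 in WT mouse 3, so that in WT mice 2 and 5 it lay above Hibch, which had 3.51 and 4.52. Bcat2 had 11.7 and 11.5 CPM per kb in WT mice 2 and 5 and 32.3 in WT mouse 3, and Bckdk had 14.5, 11.2 and 30.3. At 24h they had Bckdk first at 26.9 ± 1.72 and Bcat1 second at 23.2 ± 0.888 CPM per kb, with ranges that do not overlap.

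At 6h the dehydrogenase subunits were furthest apart. In KO cells Dbt had 16.1 ± 1.51 CPM per kb, against 3.79 ± 0.483 for Bckdha and 2.64 ± 0.29 for Bckdhb (SD, n = 5). In WT mice 2, 3 and 5 Dbt had 19.4 ± 3.17 CPM per kb, against 3.37 ± 0.0782 for Bckdha and 2.02 ± 0.345 for Bckdhb (SD, n = 3). These are levels of mRNA scaled by the full annotated exon length, so isoform use and the overlap of Bckdha with B3gnt8 can move them.

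**Figure D4:**
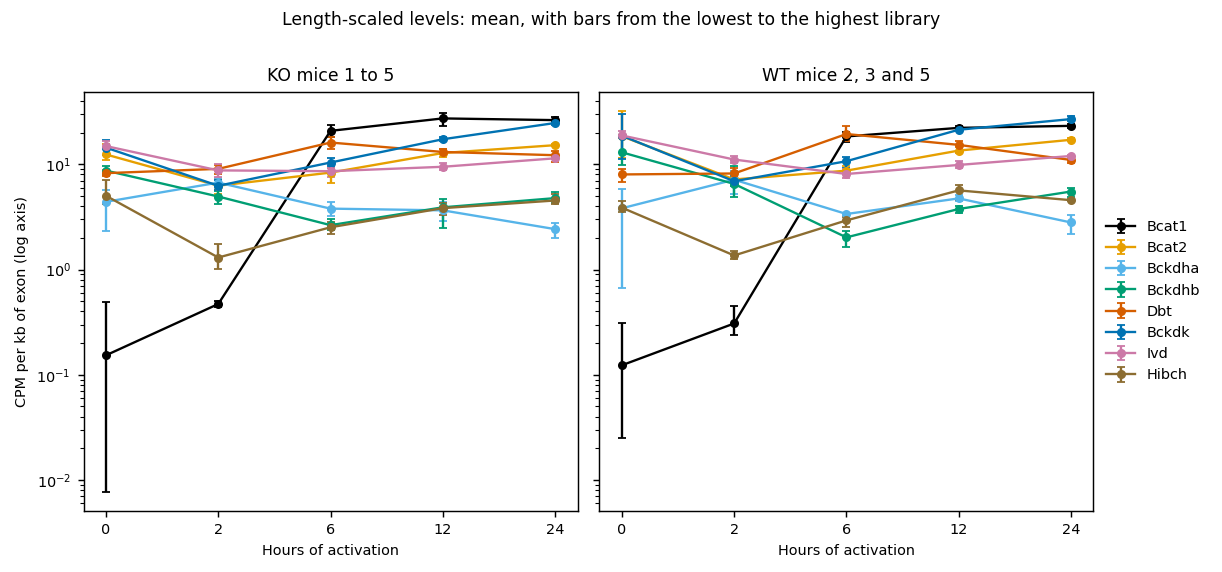
Mean level in CPM per kb of exon (log axis) of each member against hours of activation in KO mice and in WT mice 2, 3 and 5, with bars that run from the lowest to the highest library. Bcat1 crosses all other members between 2h and 6h, except Dbt in WT mice, and Bckdhb lies at 2.64 in KO and 2.02 in WT at 6h.

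Set against WT cells at the same time, KO cells had no member called higher with all mice. At 0h 0 members were higher and 1 was lower in KO cells, against 2.34% and 5.59% of all genes, and at 2h 0 were higher and 4 lower, against 2.9% and 8.9%. At 6h 0 were higher and 1 lower, against 2.53% and 7.59%, and at 12h 0 were higher and 1 lower, against 5.54% and 7.55%. At 24h edgeR called 0 of the 8, against 0.00752% of all genes called higher and 0.0376% called lower, with 0 at an unadjusted p under 0.05 and 0 by DESeq2 or limma-voom. The 24h differences ran from -0.47 for Bckdha (SE 0.306) to 0.38 for Bcat1 (SE 0.824).

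For Bcat1, the KO difference at 0h and 2h turned with WT mice 1 and 4. With all mice it was lower in KO cells by -4.46 at 0h (log2, SE 0.983, edgeR adjusted p = 0.00631) and by -2.77 at 2h (SE 0.898, adjusted p = 0.039). Leaving out those WT mice, the differences were 0.90 (SE 0.605, adjusted p = 0.29) and 0.69 (SE 0.471, adjusted p = 0.452). The difference in response, KO change from 0h minus WT change, moved likewise: 5.03 at 6h (SE 1.26, edgeR adjusted p = 0.0236) and 5.09 at 12h (adjusted p = 0.00872) with all mice, but -0.75 (adjusted p = 0.547) and -0.57 (adjusted p = 0.63) without WT mice 1 and 4. With mouse as a block and all mice, these response differences were 3.85 (edgeR adjusted p = 0.108) and 3.94 (adjusted p = 0.0669). Leaving out the 0h library of WT mouse 3 besides WT mice 1 and 4, they were called in the other direction, at -2.23 (edgeR adjusted p = 0.0427) and -2.10 (adjusted p = 0.037), on a WT level at 0h of 0.323 and 0.233 CPM in the 2 mice left. The call at 2h, and that on the response at 6h, was lost when any KO mouse or WT mouse 1 or 4 was left out. At 12h and at 24h every KO library of Bcat1 was above every WT library, as were 13% and 2.95% of all genes. The differences were 0.64 at 12h (SE 0.826, adjusted p = 0.651) and 0.38 at 24h (adjusted p = 1) in the fit of all libraries. When only the libraries of that time were fitted, without WT mice 1 and 4, they were 0.34 at 12h (edgeR adjusted p = 0.0142, 27% of all genes called higher) and 0.20 at 24h (adjusted p = 0.0254, 2.63% called higher). With all mice that kind of fit gave 0.66 (adjusted p = 0.0762) and 0.37 (adjusted p = 0.332).

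Bcat2 and Bckdk were lower in KO cells at 2h with all mice, by -0.80 (SE 0.223, edgeR adjusted p = 0.0214) and -1.14 (SE 0.274, adjusted p = 0.0096). Leaving out WT mice 1 and 4, the differences were -0.21 (adjusted p = 0.614) and -0.16 (adjusted p = 0.676). In both genes WT mice 1 and 4 had the highest values of all mice at 2h. The Bcat2 call was lost when any KO mouse or WT mouse 1 or 4 was left out, and the Bckdk call without KO mouse 1 or WT mouse 1 or 4.

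Hibch was lower in KO cells at 2h by -0.67 (SE 0.229, edgeR adjusted p = 0.0479), at 6h by -0.83 (SE 0.228, adjusted p = 0.0231) and at 12h by -0.66 (SE 0.227, adjusted p = 0.0479). The values without WT mice 1 and 4 were -0.09 at 2h (adjusted p = 0.82), -0.24 at 6h (adjusted p = 0.405) and -0.52 at 12h (SE 0.148, adjusted p = 0.0104). The 12h difference was also called with only the 10 libraries of that time (-0.66, SE 0.129, edgeR adjusted p = 0.00552), a fit that called 15.7% of genes lower, Bckdha among them at -0.51 (adjusted p = 0.0453). It was not called when genes with low counts were kept (adjusted p = 0.0852) or when any of the 5 KO mice or WT mouse 2, 4 or 5 was left out, with differences from -0.73 to -0.60 in all 10 such fits. At 12h, 7.55% of all genes were called lower with all mice and 9.03% without WT mice 1 and 4, and the KO libraries lay below all WT libraries for 11.4% of genes, Hibch and Bckdha among them. At 12h the summed CPM of the 8 mitosis genes was 106 to 505 in KO libraries, 1230 in WT mouse 1, 776 in WT mouse 4 and 99.4 to 104 in the remaining WT mice, and their part in the Hibch difference was not tested. The Hibch calls at 2h and 6h were lost when KO mouse 1, 2, 3 or 4, or WT mouse 1 or 4, was left out, and the one at 2h also without KO mouse 5.

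The response of Hibch also differed at 12h without WT mice 1 and 4, by -0.90 (SE 0.213, edgeR adjusted p = 0.00278), where 0 members were higher and 1 was lower, against 13.3% and 7.26% of all genes. With all mice it was -0.94 (SE 0.321, adjusted p = 0.0613), and with mouse as a block -0.93 (adjusted p = 0.0162), beside -0.997 at 6h (adjusted p = 0.0229), and that fit called 4.87% of genes lower at 12h and 1.38% at 6h. The block without WT mice 1 and 4 gave -0.89 at 12h (edgeR adjusted p = 0.00238), but -0.60 at 6h, which missed the threshold (adjusted p = 0.0546). When the 0h library of WT mouse 3 was also left out of the fit without a block, the 12h response difference was -0.86 (adjusted p = 0.00342) and the KO minus WT difference at 12h -0.56 (adjusted p = 0.00232). With all mice, 1 member was higher and 0 lower in this response difference at 6h, against 2.09% and 0.376% of all genes, and 1 was higher and 0 lower at 12h, against 5.54% and 1.96%, Bcat1 in both cases. At 2h and at 24h edgeR called 0 members, against 0.015% of genes higher and 0% lower at 2h and 0.015% higher and 0.0602% lower at 24h, with 1 member at an unadjusted p under 0.05 at each time. There limma-voom called 0 at both times, and DESeq2 called 0 at 2h and 1 at 24h.

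**Figure D5:**
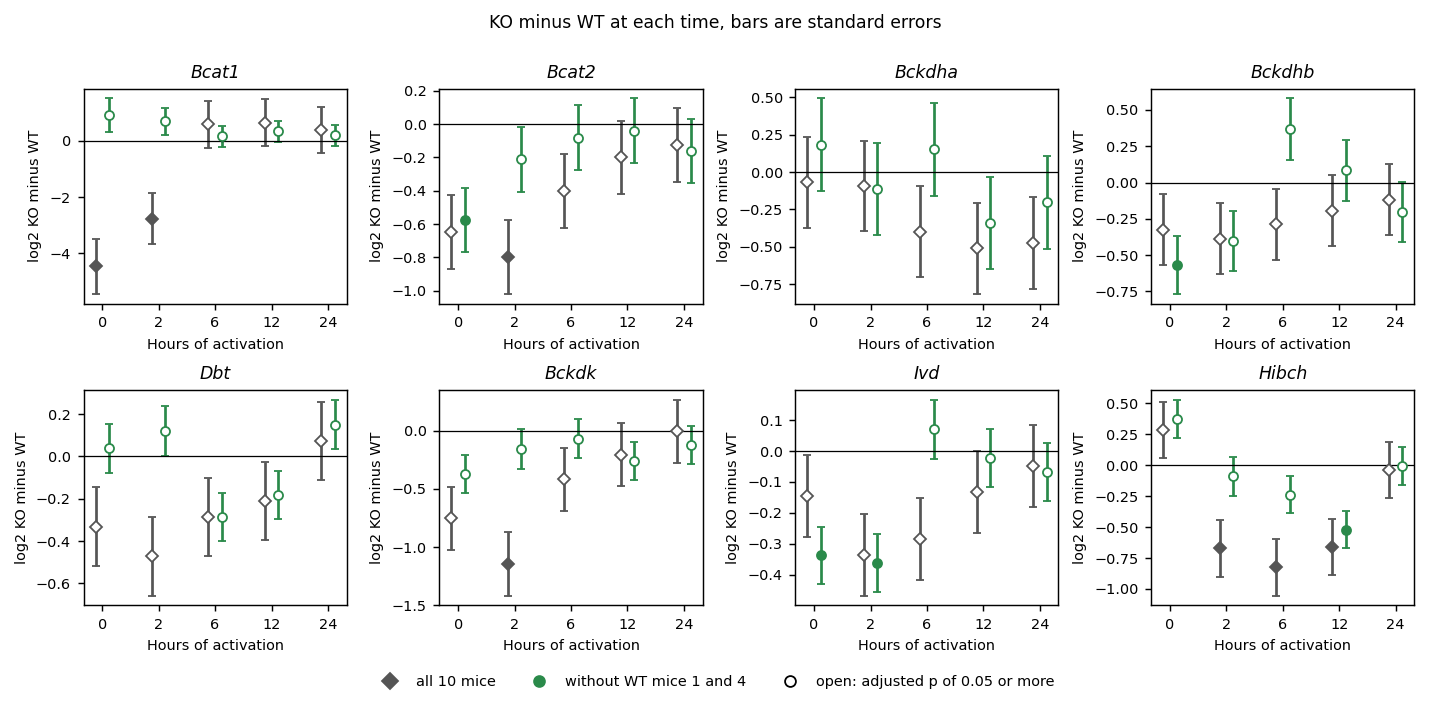
KO minus WT difference (log2) of each member at each time, with all 10 mice as diamonds and without WT mice 1 and 4 as circles, bars for 1 standard error and open symbols where the adjusted p is 0.05 or more. Hibch at 12h is the member filled in both fits, at -0.66 and -0.52, and Bcat1 at 0h lies at -4.46 and 0.90.

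In the fit without WT mice 1 and 4, a further set of differences at the early times was called. At 0h 0 members were higher and 3 lower in KO cells, against 8.9% and 13.5% of all genes, namely Bcat2 by -0.58 (edgeR adjusted p = 0.0292), Bckdhb by -0.57 (adjusted p = 0.0396) and Ivd by -0.34 (adjusted p = 0.00997). With the 0h library of WT mouse 3 left out too, Bcat2 was at 0.06 (adjusted p = 0.768), Bckdhb at -0.22 (adjusted p = 0.446) and Ivd at -0.28 (adjusted p = 0.0395), while Bcat1 was called higher in KO cells at 2.39 (adjusted p = 0.0223). That fit called 7.17% of genes higher and 9.34% lower at 0h. That library had the highest Bcat2, Bckdhb and Ivd of all 10 at 0h and the lowest Bckdha. At 2h 0 members were higher and 1 lower, against 1.86% and 2.24%, namely Ivd by -0.36 (SE 0.0939, edgeR adjusted p = 0.0222). KO libraries lay below all 5 WT libraries for Ivd at 2h, as for 2.58% of all genes, and with all mice the difference was -0.34 (adjusted p = 0.0825). At 6h the response differences of Bckdhb, 0.93 (SE 0.295, adjusted p = 0.04), and Ivd, 0.41 (SE 0.134, adjusted p = 0.047), were called, with 2 members higher and 0 lower against 5.82% and 3.74% of all genes. Without the 0h library of WT mouse 3, whose Bckdhb was the highest, Bckdhb was at 0.60 (edgeR adjusted p = 0.133) and Ivd at 0.37 (adjusted p = 0.0488), and 9.23% of genes were called higher and 6.69% lower. At 12h that fit called Bckdk lower in KO cells, by -0.30 (edgeR adjusted p = 0.0136), and in its response, by -0.43 (adjusted p = 0.0237), where 19.6% of genes were called lower between genotypes and 15.6% higher and 13.6% lower in the response. Bckdk at 12h was also called with only the libraries of that time and without WT mice 1 and 4, at -0.26 (edgeR adjusted p = 0.00703, 26.4% of genes lower), but not with all mice (-0.20, adjusted p = 0.657) or in the fit without WT mice 1 and 4 (adjusted p = 0.27). The fit without WT mice 1 and 4 called 0 members between genotypes at 6h, against 2.31% of genes higher and 1.85% lower, with 1 at an unadjusted p under 0.05. At 24h it called 0, against 0.0377% and 0.00755%, with 0 at an unadjusted p under 0.05. For the response differences edgeR called 0 at 2h, against 0.0755% and 0.189%, with 1 at an unadjusted p under 0.05, and 0 at 24h, against 0.211% and 0.649%, with 0 at that level.

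Of the other 17 genes of the breakdown route, 9 fell at 2h and 11 at 6h in KO cells, where 19.6% and 22.4% of all genes were called lower. There 1 was higher at 2h, against 20.3% of all genes, and 1 at 6h, against 26.8%. At 12h 3 were higher and 8 lower, against 27.8% and 25%. At 24h 2 were higher and 5 lower, against 30.7% and 28%, a share of lower genes close to that over all genes. The medians were -0.44 at 2h, -0.74 at 6h and -0.13 at 24h (log2). The medians over all genes tested were -0.08, -0.04 and 0.02. In WT cells 1 was higher and 5 lower at 2h, against 14% and 16.2% of all genes. At 6h 2 were higher and 2 lower, against 20.2% and 19.7%, and at 12h 2 and 2, against 19.3% and 20.2%. At 24h 1 was higher and 5 lower, against 19.9% and 24.2%, a share of lower genes near that over all genes. Among WT mice 2, 3 and 5 the counts were 1 and 9 at 2h, against 21.9% and 27.7%, and 2 and 9 at 6h, against 28.6% and 31.2%. They were 5 and 4 at 12h, against 28% and 32.2%, and 4 and 7 at 24h, against 32.5% and 32%. Dld, the E3 subunit that this complex shares with pyruvate dehydrogenase, rose at 6h by 0.70 in KO cells (SE 0.154, edgeR adjusted p = 0.000209) and by 0.80 in WT cells (SE 0.154, adjusted p = 5.99e-05). Pccb, a subunit of propionyl-CoA carboxylase, fell at 6h by 0.98 in KO cells (edgeR adjusted p = 2.19e-06) and by 0.91 in WT cells (adjusted p = 1.22e-05). Acad8, the isobutyryl-CoA dehydrogenase of the valine branch, was lower at 24h by -0.47 in KO cells (adjusted p = 0.00171) and by -0.68 in WT cells (adjusted p = 4.53e-05). Mccc1, a subunit of the leucine-branch methylcrotonyl-CoA carboxylase, was higher at 12h by 0.33 in KO cells (edgeR adjusted p = 0.0276) and by 0.68 in WT cells (adjusted p = 4.75e-05).

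Between genotypes these 17 genes had 0 higher and 4 lower in KO cells at 2h with all mice, against 2.9% and 8.9% of all genes. They had 0 higher and 9 lower at 6h, against 2.53% and 7.59%. At 12h they had 0 higher and 4 lower, against 5.54% and 7.55%. The medians were -0.32 at 2h, -0.52 at 6h and -0.46 at 12h. Over all genes tested the medians were -0.07, -0.04 and -0.10. Without WT mice 1 and 4 the counts were 0 and 0 at 2h, against 1.86% and 2.24% of all genes. At 6h they were 0 and 2, against 2.31% and 1.85%, and at 12h 0 and 8, against 13.9% and 9.03%. With the 0h library of WT mouse 3 out too, 0 were higher and 13 lower at 12h, against 17.6% and 19.6%. Acat1, the mitochondrial thiolase of the isoleucine branch, was at 42.6 to 50.8 CPM in KO mice and 57 to 121 CPM in WT mice at 6h. It was lower in KO cells by -0.78 (SE 0.181, edgeR adjusted p = 0.011) with all mice and by -0.44 without WT mice 1 and 4 (SE 0.0992, adjusted p = 0.00793), and at 12h without those mice by -0.49 (SE 0.0987, adjusted p = 0.000561). Mccc1 was lower in KO cells at 2h by -0.53 (SE 0.129, edgeR adjusted p = 0.0111), and its partner subunit gene Mccc2 by -1.37 (SE 0.332, adjusted p = 0.0105). In the fit without WT mice 1 and 4 neither was called, at -0.31 (adjusted p = 0.141) and -0.33 (adjusted p = 0.319).

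Among the 10 genes of branched-chain amino acid uptake and leucine sensing, 6 rose and 2 fell in KO cells at 6h, against 26.8% and 22.4% of all genes, with a median of 0.86 (log2). At 2h 3 were higher and 0 lower, against 20.3% and 19.6%, and at 24h 4 were higher and 3 lower, against 30.7% and 28%. In WT cells 2 were higher and 0 lower at 2h, against 14% and 16.2% of all genes, 3 higher and 2 lower at 6h, against 20.2% and 19.7%, and 4 higher and 2 lower at 24h, against 19.9% and 24.2%. The WT median at 6h was 0.63. Slc7a5, the light chain of the large neutral amino acid carrier, was at 435 to 502 CPM in KO mice and 188 to 469 CPM in WT mice at 24h, against 47.4 to 82 CPM in KO mice and 49.4 to 212 CPM in WT mice at 0h. It rose by 2.83 in KO cells (SE 0.351, edgeR adjusted p = 1.53e-08) and by 1.64 in WT cells (SE 0.336, adjusted p = 0.000129), or by 2.92 in WT cells without WT mice 1 and 4. Slc3a2, its heavy chain, rose at 6h by 1.91 in KO cells (edgeR adjusted p = 2.34e-09) and by 1.004 in WT cells (adjusted p = 0.000171). Lars, the cytosolic leucyl-tRNA synthetase, rose at 6h by 1.46 in KO cells (edgeR adjusted p = 1.15e-06) and by 1.07 in WT cells (adjusted p = 0.000184). Slc43a2, a facilitated carrier of large neutral amino acids, was lower at 6h by -2.07 in KO cells (edgeR adjusted p = 6.75e-05) and by -2.105 in WT cells (adjusted p = 8.19e-05).

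Between genotypes 2 of these 10 genes were higher and 1 lower in KO cells at 6h with all mice, against 2.53% and 7.59% of all genes. At 12h 3 were higher and 1 lower, against 5.54% and 7.55%. Without WT mice 1 and 4, 1 was higher and 0 lower at 6h, against 2.31% and 1.85%. At 12h that fit had 5 higher and 1 lower, against 13.9% and 9.03%. At 12h Slc7a5 was at 342 to 393 CPM in KO mice and 116 to 214 CPM in WT mice, with no overlap, as for 13% of all genes. It was higher in KO cells by 1.299 (SE 0.333, edgeR adjusted p = 0.0109), and without WT mice 1 and 4 by 1.22 (SE 0.21, adjusted p = 0.000107). The response difference at 12h was 2.03 with all mice (SE 0.468, edgeR adjusted p = 0.0048) and 0.91 without WT mice 1 and 4 (adjusted p = 0.0206). Sesn1 and Sesn2 encode sestrins, a family known for leucine sensing upstream of mTORC1. Sesn2 was higher in KO cells at 6h by 1.35 (SE 0.326, edgeR adjusted p = 0.0131), at 43.2 to 54 CPM in KO mice and 15.4 to 22.7 CPM in WT mice. Sesn1 was lower in KO cells at 12h by -1.32 (SE 0.332, edgeR adjusted p = 0.0102), and without WT mice 1 and 4 by -0.97 (SE 0.155, adjusted p = 4.92e-05).

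Among all 10125 genes ranked, the closest in pattern to Bcat1 over the 10 group medians were Crabp2, Spin4, Idi2, Npw and Ccl22, with root mean square differences of 0.521 to 0.812 on the centred log2 scale, where the group medians of Bcat1 span 8.21. The closest to Hibch were Fra10ac1, Prps2, Sirt5, Sumf2 and Vps45, with differences of 0.156 to 0.2, where its group medians span 2.34. This likeness is a description over 10 groups that share mice and libraries. The other members span 1.06 for Ivd, 1.29 for Dbt, 1.54 for Bckdha, 1.61 for Bcat2, 2.06 for Bckdhb and 2.32 for Bckdk.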

How the data were processed

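RNA from each mouse and time was made into strand-specific mRNA libraries and read from 1 end, per the protocols in the labels. The deposited values are raw read counts per Ensembl gene, made with STAR 2.4 and featureCounts 1.4.6 on GRCm38 after CASAVA 1.8.2, per the submitters' processing notes; the strand setting is not given in the sources used here. Symbols were matched to 21583 of the 21647 IDs with GENCODE M21, which also gave positions and exon lengths; promoter sequences are RefSeq's.

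The members and all gene lists were chosen with earlier results of these data known. The genes named from the other 2 pathway lists are those with the smallest p in a family of comparisons, up to 5 each; likeness was ranked for the 2 members of widest range. Counts of all 50 libraries were fitted in R 4.3.3 with edgeR 4.0.16 (quasi-likelihood test, TMM scaling, filterByExpr with a minimum count of 10, 10 group means, 40 residual degrees of freedom), with Benjamini-Hochberg adjustment over all 13294 genes in each contrast and calls at an adjusted p under 0.05. CPM uses TMM-scaled library sizes. All contrasts are KO minus WT or later minus 0h. limma 3.58.1 and DESeq2 1.42.0 were alternatives. The fit was also run on simulated counts in which every library was drawn independently. These held no correlation within a mouse and no WT libraries that stood apart, so they cannot speak to calls that turn on either. The same mouse was sampled at every time, and its libraries deviated together (mean correlation 0.212 to 0.356 in KO mice and 0.415 to 0.638 in WT mice), so mouse was also fitted as a block; numbers shared between KO and WT mice did not pair them (-0.197 to 0.139). The fit counts libraries of 1 mouse as independent. Precision rests on 5 mice a group, and on counting error where Bcat1 is low. Fits without WT mice 1 and 4 rest on 3 WT mice. Those that also leave out the 0h library of WT mouse 3 rest on 2 WT libraries at 0h. The deleted gene is not reported here, nor is a check of genotypes by its counts.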

Additional observations from a re-analysis of the deposited data

Results flagged for a closer look

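In 8 of the 80 groups of 5 libraries examined, the highest or lowest library stood away from the other 4 by more than Dixon's critical share of the range, 0.71; chance gives about 4. WT mice 1 and 3 gave 3 of them: Bcat1 at 24h was 103 CPM in WT mouse 1, with 195 CPM next, and in the 0h library of WT mouse 3 Bckdha was 1.25 CPM, with 9.44 CPM next, and Bckdhb 34.1 CPM, with 18.3 CPM next. KO mouse 3 at 0h had 60.8 CPM of Bcat2, with 46.5 CPM next, and 42.7 CPM of Hibch, with 30.1 CPM next. KO mouse 4 at 6h had 43 CPM of Bckdk, with 37.6 CPM next, and 41.4 CPM of Ivd, with 47.9 CPM next. KO mouse 5 at 12h had 47.1 CPM of Dbt, with 43.4 CPM next.

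The change of Bcat1 from 0h differed between KO and WT cells by 5.03 at 6h and by 5.09 at 12h on the log2 scale (edgeR interaction contrasts, adjusted p = 0.0236 and 0.00872). WT mice 1 and 4, at 86.5 and 71.4 CPM at 0h, move with both values, which are -0.75 and -0.57 without them, and -2.23 and -2.10 when the 0h library of WT mouse 3 is left out too.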

How the results depend on the processing

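Of 40 tests of KO against WT, 7 called a member; limma-voom called 1, keeping genes of low counts 4, only the libraries compared 2 (4 without WT mice 1 and 4), and fits without 1 mouse 1 to 10. Settings that leave out the 0h library of WT mouse 3, or that fit only the libraries compared without WT mice 1 and 4, were chosen after seeing the data. Of 32 tests in WT cells over time, 18 were calls, and 13 to 18 without 1 mouse. With only the libraries compared 4 were calls, namely Bckdhb at 6h, 12h and 24h and Dbt at 6h. Of 32 tests in KO cells, 21 were calls. Of 32 response differences, 2 were calls; RLE size factors gave 4, DESeq2 5, limma-voom 0, only the libraries compared 1, leaving out WT mice 1 and 4 and the 0h library of WT mouse 3 5, and fits without 1 mouse 1 to 4. The replicate block of mouse gave 22 calls in KO cells over time, 20 in WT cells and 2 response differences, Hibch in place of Bcat1; mouse number as a replicate block across genotypes, which does not pair mice, gave 5 calls of KO against WT. With all mice, the block changed no other call; without WT mice 1 and 4 it gave 25, 24 and 3.

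Without WT mice 1 and 4 the sign of Bcat1 turned in KO against WT at 0h (0.90) and 2h (0.69), in WT cells at 2h (1.73) and in the response at 6h (-0.75) and 12h (-0.57); Ivd turned in the response at 6h (0.41) and Hibch in WT cells at 6h (-0.41). The block on the same mice gave Bcat1 1.76, -0.66 and -0.50, Ivd 0.41 and Hibch -0.41. Only the libraries compared, without those mice, gave Bcat1 0.34 at 0h and 0.66 at 2h. With the 0h library of WT mouse 3 out too, Bcat1 was 2.39, 0.73, 3.18, -2.23 and -2.10, Ivd 0.37 and Hibch -0.49, and further turns were Bcat2 in WT cells at 24h (0.53), Bckdha at 6h (-0.72) and Bckdk at 12h (0.68) and in its response at 12h (-0.43). The cause was not tested. Scaling by library totals moved the median of all genes at 2h against 0h in KO cells to -0.25, against -0.08 with TMM, and it gave 18 calls in KO cells over time and 16 in WT cells. Low reads limit Bcat1 at 0h, where 3 libraries in all had under 10.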
